A study of Mus musculus with 2 samples.

Results

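Myelin and oligodendrocyte genes were followed in ribosome-bound RNA from the mouse cerebral cortex. The set was a list of 32 gene symbols, all of which had a row among the 32531 genes listed. The genes were listed by symbol with no threshold on a measured value, though earlier results of these data were known when the list was made. The set holds myelin proteins, enzymes of the oligodendrocyte, its transcription factors and proteins it secretes. The RNA came from adult Gdnf-EGFP/Rpl10a mice (line ES2243), which received no treatment. In this line the ribosomal protein Rpl10a carries EGFP (a fluorescent protein used as the handle for purification) and follows the regulatory sequences of Gdnf, so only cells in which those sequences are active should tag their ribosomes. The study aims at pericytes, the cells on the outer face of brain capillaries. Its 2 libraries, IP1 and IP2, are both immunopurified RNA and form 1 group. The labels leave out the sex, the strain background, the number of animals and whether animals were pooled, so the spread between the libraries may be technical. Unpurified cortex was not analysed here, and no value below is an enrichment.

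Myelin is the spiral of membrane that oligodendrocytes wrap around axons in the brain. Its lipids are rich in galactosylceramide and sulfatide, and its layers are held together from the cytoplasmic side by basic proteins and from the outside by membrane-spanning ones. Proteins that span membranes, hang on a lipid anchor at the cell surface or are secreted are made on ribosomes bound to the endoplasmic reticulum (ER). The proteins of the cytoplasmic face and the soluble enzymes are made on free ribosomes, and the messenger RNA of myelin basic protein is carried into the cell processes and translated there. The genes are therefore described by where their proteins act. The membrane class has 14 members, of which 11 lie at the cell surface and 3 on the cytoplasmic face of myelin. The intracellular class has 15, and 3 members are secreted.

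The upstream sequences of 3 genes are shown because these genes differed between the libraries in opposite directions: the membrane genes Cldn11 and Mag were higher in IP2 and the enzyme gene Qdpr in IP1, as described further on. Each is the 250 bases before the RefSeq start of the gene farthest upstream, 5′ to 3′ on the gene's strand, in build GRCm38.p6 (mm10). The Cldn11 sequence is chr3:31149670-31149919 on the plus strand, that of Mag is chr7:30914923-30915172 on the minus strand and that of Qdpr is chr5:45450230-45450479 on the minus strand. Capitals mark ACAAAG, a word that SOX factors such as the oligodendrocyte regulator SOX10 can bind, and GGGCGG, the GC box, each searched on both strands.
Cldn11: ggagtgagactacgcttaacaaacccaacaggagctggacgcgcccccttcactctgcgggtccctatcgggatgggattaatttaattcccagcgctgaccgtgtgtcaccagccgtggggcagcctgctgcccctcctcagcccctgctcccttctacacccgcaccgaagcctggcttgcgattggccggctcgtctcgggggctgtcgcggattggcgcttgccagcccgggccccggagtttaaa
Mag: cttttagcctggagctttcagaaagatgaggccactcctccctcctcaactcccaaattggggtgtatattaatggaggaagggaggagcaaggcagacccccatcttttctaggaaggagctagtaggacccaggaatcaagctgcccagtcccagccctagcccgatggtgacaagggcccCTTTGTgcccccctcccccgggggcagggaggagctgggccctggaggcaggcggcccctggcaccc
Qdpr: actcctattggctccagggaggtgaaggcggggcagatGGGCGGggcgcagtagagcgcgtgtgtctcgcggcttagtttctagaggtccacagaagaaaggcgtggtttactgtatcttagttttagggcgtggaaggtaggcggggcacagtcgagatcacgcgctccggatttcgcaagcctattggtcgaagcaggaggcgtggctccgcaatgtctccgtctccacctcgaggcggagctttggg
The word ACAAAG stood once in the Mag sequence, on the opposite strand, and GGGCGG once in that of Qdpr. Neither word was found in these bases of Cldn11. Over all 32851 such windows, 16.5% held ACAAAG and 32.7% held GGGCGG. Of the 22 members with a window, 6 held ACAAAG (Cnp, Mag, Mobp, Opalin, Plekhb1 and Tspan2) and 8 held GGGCGG. A member was counted if any of its listed starts had the word, and Mag has 3 starts. The shares over all windows count each window once, so the member counts cannot be set directly against them. The bases G and C made up 63.6% of the Cldn11 window, 61.2% of that of Mag and 59.6% of that of Qdpr. Their median over the 32851 windows was 52.4%. Bcas1, Omg, Trf, Myrf, Ndrg1, Cryab, Car2, Enpp2 and Fa2h had no window, and Mbp was not searched. These matches describe the letters and say nothing of binding.

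IP1 held 65200231 and IP2 72732502 counted reads, so a single count was 0.0153 or 0.0137 CPM (counts scaled to a total of 1000000 gene counts). Markers of several cell types were present. All 12 pericyte and pan-mural, all 12 neuronal, all 12 oligodendrocyte precursor and 10 of 12 astrocyte markers reached 10 CPM in both libraries, against 1 of 12 endothelial and 1 of 12 microglial markers. Schwann cells, which make the myelin of peripheral nerves, share several of these genes. Their markers Pmp2 and Foxd3 had no count in either library, and the 6 markers together had 40.1 CPM in IP1 and 19.8 CPM in IP2. Choroid plexus also expresses Enpp2, Trf and Car2. Its 10 markers together had 27.0 CPM in IP1 and 35.6 CPM in IP2, most of it from Kl. Of the 8 tested 5 were higher in IP2 and 1 in IP1 by the adjusted p (exact binomial test). By that rule 37.6% of all genes tested were higher in IP2 and 38.2% in IP1. Kcnj13 (2.91 and 4.17 CPM) and Clic6 (2.90 and 4.18 CPM) stood above Otx2 (0.015 and 0.55 CPM) and Ttr (0.061 and 0.51 CPM), while Folr1 had 1 count in all and Kcne2 none. The part of choroid plexus RNA in the ratios of these 3 members was not tested. At 10 CPM in both libraries were 1 of 6 Schwann cell markers (Egr2, which is also an immediate early gene of neurons) and 1 of 10 choroid plexus markers (Kl).

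The 32 genes together made up 0.521% of the gene counts of IP1, with an exact 95% interval of 0.519 to 0.522%, and 0.526% of those of IP2, with an interval of 0.524 to 0.528%. These intervals, and those of all ratios given, cover counting error only, since reads are not independent molecules. In both libraries 29 of the 32 reached 10 CPM, where 28.3% of all listed genes did. The exceptions were Opalin, Nkx6-2 and Hapln3. Mean levels ran from 3.07 CPM for Nkx6-2 to 723 CPM for Sirt2. No transcript length entered these values, so they are compared between libraries and not between genes. In bulk RNA, a lower share of a cell type and less RNA per cell cannot be told apart.

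**Figure D1:**
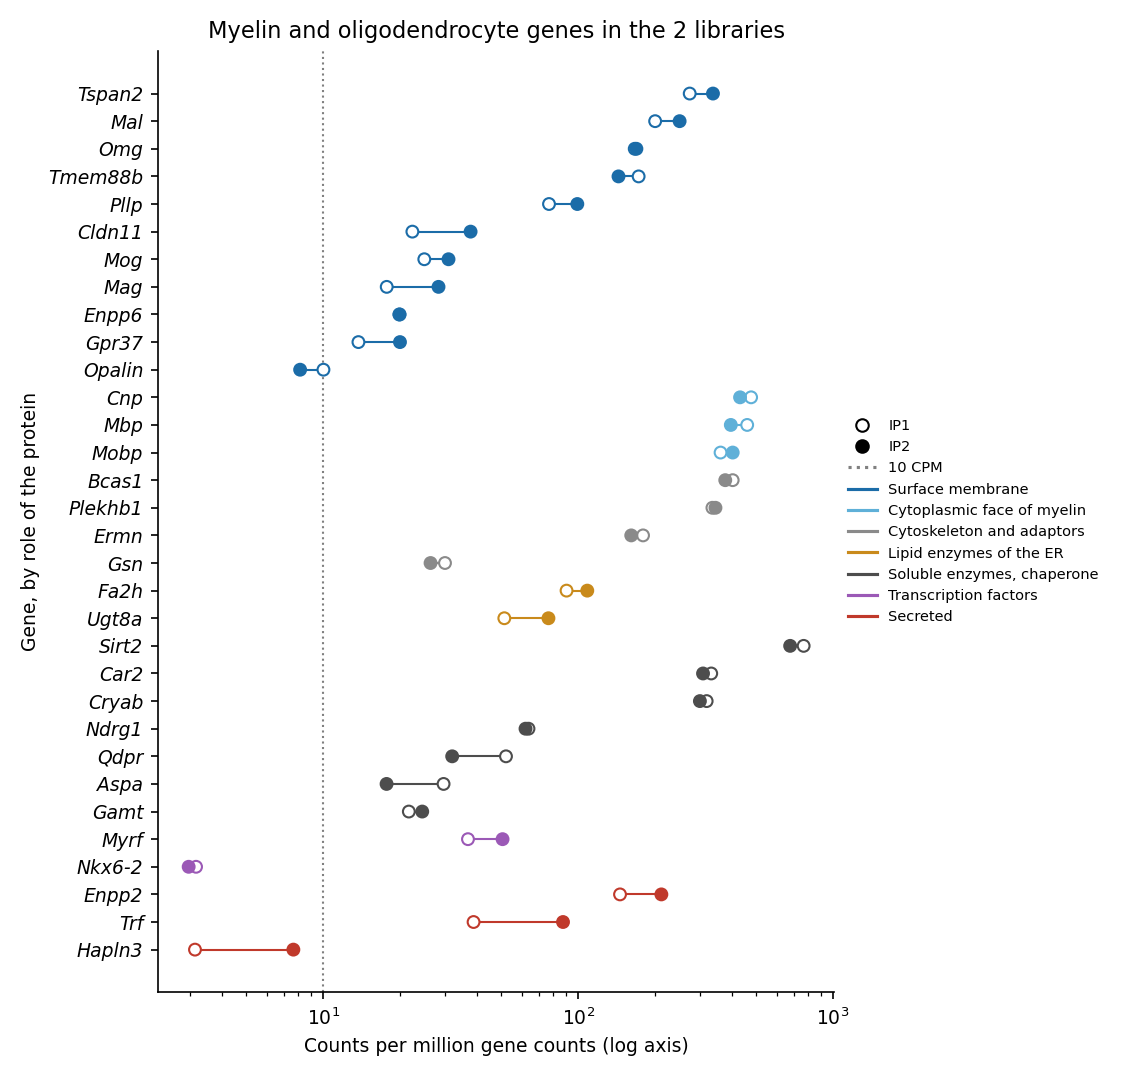
Level of each of the 32 genes in CPM (log axis), IP1 as open and IP2 as filled circles joined by a line, grouped by role of the protein; the dotted line marks 10 CPM. All genes except Opalin, Nkx6-2 and Hapln3 lie at or right of it in both libraries, and Trf and Hapln3 have the longest lines toward IP2.

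For each gene, the split of its reads between IP1 and IP2 was set against the library sizes in an exact binomial test (two-sided, p-values adjusted by Benjamini-Hochberg over all 17306 genes tested). Calls needed both an adjusted p below 0.05 and a ratio of 1.5 or more. With 1 library on each side this test compares these libraries and has no replicate check. By this rule 7 members were higher in IP2 (Cldn11, Mag, Gpr37, Ugt8a, Enpp2, Trf and Hapln3) and 2 were higher in IP1 (Aspa and Qdpr). Over all genes tested, 14.1% were called higher in IP2 and 15.4% in IP1. Both shares were lower among the 9656 genes averaging 10 CPM or more, at 7.97% and 3.4%, and the 29 members at that level had 6 and 2 calls. By the adjusted p alone, with no minimum ratio, 17 members were higher in IP2 and 12 in IP1. The background of that looser rule was 37.6% and 38.2% of all genes tested, or 44.4% and 37.1% of those averaging 10 CPM or more. Over the 32 members the median log2 ratio, IP2 against IP1, was 0.08, and over all genes tested -0.00437. Without the members whose span overlaps another gene it was 0.35. With library totals in place of TMM factors, Gpr37, Ugt8a and Enpp2 fell just short of 1.5 and 4 members were called higher in IP2. If libraries of 1 condition are assumed to vary with a coefficient of 0.2 (edgeR's exact test), Trf and Hapln3 alone were called. The coefficient estimated over both libraries as 1 group was 0.297 (14389 genes), larger than the values assumed. With it the same test called 0 members in either direction, the lowest adjusted p being 0.315 (Hapln3, the 1 member with an unadjusted p under 0.05).

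**Figure D2:**
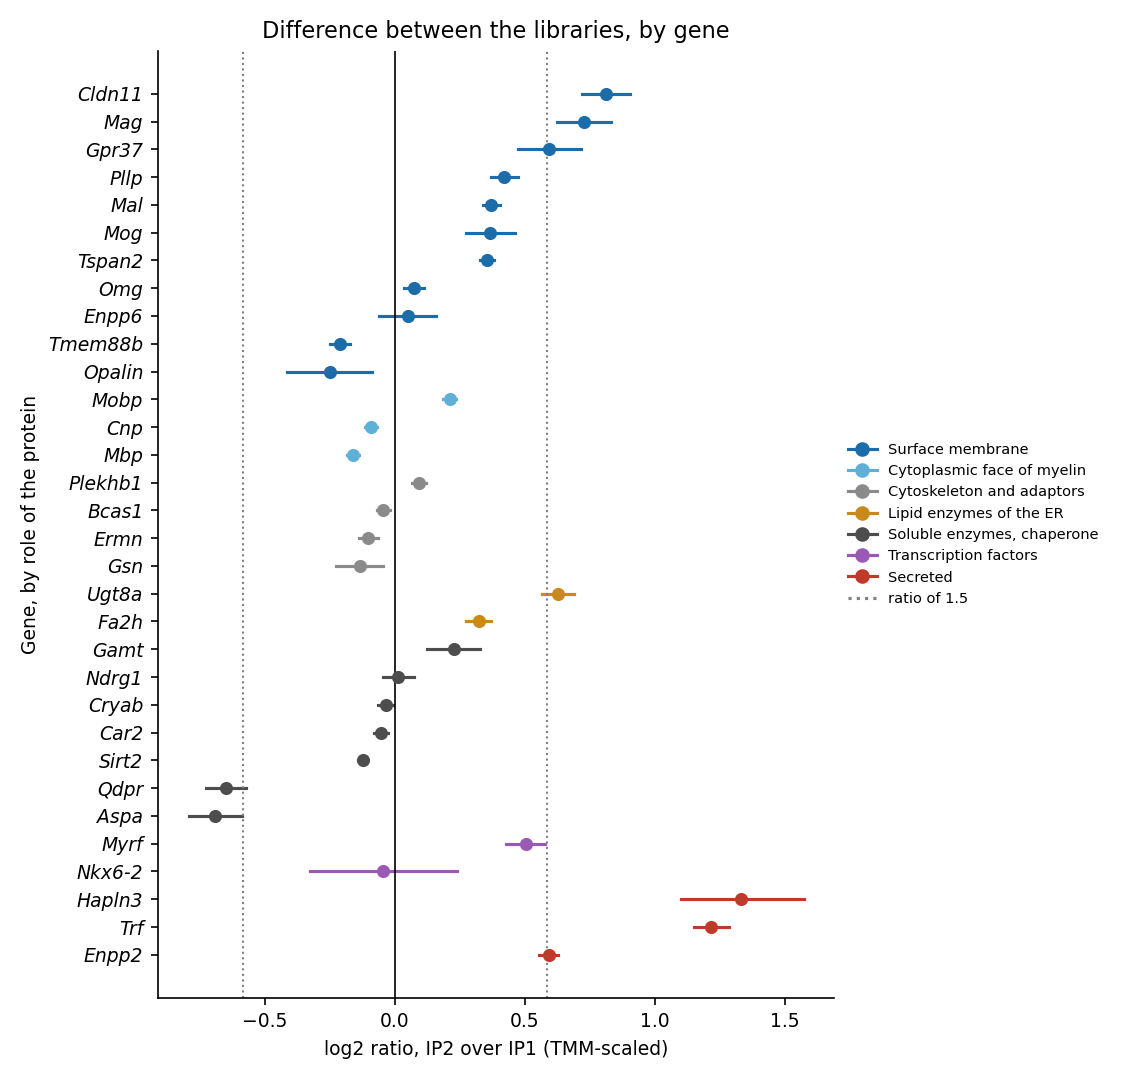
log2 ratio of IP2 over IP1 (TMM-scaled) of each gene with its exact 95% interval for counting error, grouped by role; dotted lines mark a ratio of 1.5 in each direction. Of the 11 surface genes 9 lie right of 0, Hapln3 and Trf lie farthest right, and Aspa and Qdpr are beyond the left line.

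Genes of surface membrane proteins were mostly higher in IP2. Of the 11, 8 were higher in IP2 and 2 in IP1 by the adjusted p, with a median log2 ratio of 0.37. By that rule 37.6% of all genes tested were higher in IP2 and 38.2% in IP1. Among genes averaging 10 CPM or more the shares were 44.4% and 37.1%. Cldn11 (chr3:31149920-31164326), the claudin that seals the myelin spiral, had 22.4 CPM in IP1 and 37.9 CPM in IP2. That is a ratio of 1.75 (exact 95% interval 1.65 to 1.87; adjusted p = 2.2e-69 by the exact binomial test). Mag (chr7:30899175-30914922), the adhesion protein that faces the axon, had 17.8 CPM in IP1 and 28.4 CPM in IP2, a ratio of 1.66 (1.54 to 1.78; adjusted p = 2.12e-43, exact binomial test). Both intervals lay above 1.5, for counting error only. With a coefficient of variation of 0.2, or the estimated 0.297, edgeR's exact test called neither gene.

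Gpr37, an orphan receptor of oligodendrocytes, had 13.8 CPM in IP1 and 20.02 CPM in IP2; its interval of 1.39 to 1.64 spans the ratio used for calls. Mog, an immunoglobulin-like protein on the outermost layer of myelin, had 24.9 CPM in IP1 and 31.0 CPM in IP2, a ratio of 1.29. The proteolipids Mal (201 CPM in IP1, 250.1 CPM in IP2) and Pllp (76.9 and 99.3 CPM), which both have a fold of membrane-spanning segments known as the MARVEL domain, had ratios of 1.29 and 1.34. Tspan2, a tetraspanin of the oligodendrocyte, had 274 CPM in IP1 against 338 CPM in IP2, a ratio of 1.28. These 4 genes passed the adjusted p and stayed under the ratio used for calls.

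The other 4 surface genes stayed near level or were lower in IP2. Omg, a lipid-anchored glycoprotein that inhibits axon growth and is also made by neurons, had 167 CPM in IP1 and 169 CPM in IP2, a ratio of 1.05 (1.03 to 1.08). Enpp6, a lipid-anchored choline phosphodiesterase used as a marker of newly forming oligodendrocytes, had 19.95 CPM in IP1, 19.91 CPM in IP2 and did not pass the test (adjusted p = 0.416, exact binomial test). Tmem88b, a membrane protein enriched in oligodendrocytes, was lower in IP2 (173 CPM in IP1, 144 CPM in IP2), a ratio of 0.865 (0.842 to 0.888). Opalin, a glycoprotein of mature oligodendrocytes, had 10.03 CPM in IP1 and 8.13 CPM in IP2, a ratio of 0.841 (0.751 to 0.941).

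Genes of the cytoplasmic face of myelin differed little between the libraries. Mbp (chr18:82475091-82585637), the basic protein that compacts myelin, had 460.4 CPM in IP1 and 397 CPM in IP2, a ratio of 0.895 (0.881 to 0.910). Cnp, a phosphodiesterase that keeps channels of cytoplasm open within myelin, had 477 CPM in IP1 and 432 CPM in IP2, a ratio of 0.939. Mobp, a small basic protein of compact myelin, had 362 CPM in IP1 and 404 CPM in IP2, a ratio of 1.16 (1.14 to 1.18). The span of Cnp overlaps that of Dnajc7, and that of Mbp holds a pseudogene and a noncoding gene, which makes part of their counts uncertain.

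Intracellular genes of the cytoskeleton and adaptors were nearly level. Bcas1, a marker of actively myelinating cells, had 404 CPM in IP1 and 378 CPM in IP2. Plekhb1, a protein with a pleckstrin homology domain, had 336 and 346 CPM, and Ermn, the cytoskeletal protein ermin, 180 and 162 CPM. Gsn, the actin-severing protein gelsolin, had 30.1 CPM in IP1, against 26.4 CPM in IP2. The ratios of these 4 genes lay between 0.911 and 1.07.

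The lipid enzymes of the ER went with the surface genes. Ugt8a, the enzyme that makes galactosylceramide, had 51.4 CPM in IP1 and 76.5 CPM in IP2, a ratio of 1.55 (1.48 to 1.61; adjusted p = 2.95e-89, exact binomial test). Fa2h, which hydroxylates the fatty acids of that lipid, had 90.1 CPM in IP1 and 109 CPM in IP2, a ratio of 1.25 (1.21 to 1.29). Both enzymes sit in the ER membrane and were counted here as intracellular.

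Soluble enzymes held the genes called higher in IP1. Aspa (chr11:73304987-73326876), the aspartoacylase that frees acetate from N-acetylaspartate, had 29.7 CPM in IP1 and 17.7 CPM in IP2, 1.61-fold higher in IP1 (adjusted p = 3.65e-40, exact binomial test). Qdpr (chr5:45434032-45450229), the reductase that regenerates tetrahydrobiopterin, had 52.1 CPM in IP1 and 32.1 CPM in IP2, 1.57-fold higher in IP1 (adjusted p = 1.37e-62, exact binomial test). The other soluble proteins moved far less. Sirt2, a deacetylase of tubulin, had 767 CPM in IP1 and 679 CPM in IP2, Car2, a carbonic anhydrase, 333 and 309 CPM, and Cryab, a small heat shock protein, 319 and 300.4 CPM. Gamt, an enzyme of creatine synthesis, had 21.7 CPM in IP1 and 24.5 CPM in IP2. Ndrg1, a stress-responsive protein whose loss causes demyelination in nerves, had 63.9 and 62.2 CPM and did not pass the test (adjusted p = 0.684, exact binomial test). The span of Aspa overlaps Spata22, that of Cryab Hspb2 and 2310030G06Rik, and that of Sirt2 Gm19897, while Qdpr overlaps no listed gene. Of the genes described before these, Ugt8a overlaps Gm40145, Omg overlaps Nf1 and Tspan2 overlaps Tspan2os. Enpp6 overlaps Gm31231, Bcas1 overlaps Bcas1os2 and Gsn overlaps Gm39795.

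Of the transcription factors, Myrf, the master regulator of myelin genes, had 37.0 CPM in IP1 and 50.6 CPM in IP2, a ratio of 1.42 (1.35 to 1.49). Its protein is made as a precursor in the ER membrane and cut to release the factor. Nkx6-2, a homeobox factor, had 3.17 CPM in IP1, 2.97 CPM in IP2 and did not pass the test (adjusted p = 0.801, exact binomial test). It lies within a region shared with Inpp5a.

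The 3 secreted members were all called higher in IP2, and Hapln3 and Trf had the largest ratios of the 32 genes. Trf (chr9:103208876-103230286), the iron carrier transferrin, had 38.9 CPM in IP1 and 87.3 CPM in IP2, a ratio of 2.33 (2.22 to 2.44). Hapln3 (chr7:79117027-79133173), a link protein of hyaluronan matrix that is not restricted to oligodendrocytes, had 205 counts in IP1 and 556 in IP2, or 3.14 and 7.64 CPM, a ratio of 2.52 (2.15 to 2.98). Enpp2 (chr15:54838901-54952789), the lysophospholipase autotaxin, had 146 CPM in IP1 and 212 CPM in IP2, a ratio of 1.51 (1.47 to 1.55). None of their spans overlaps another listed gene.

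The median log2 ratio was 0.28 for the 14 membrane genes and -0.04 for the 15 intracellular ones, a difference of 0.33. The classes overlapped: 10 of the 14 membrane genes lay above the intracellular median and 3 of the 15 intracellular genes (Ugt8a, Myrf and Fa2h) above the membrane median. Only Cldn11 and Mag exceeded every intracellular gene. Taken without Mbp, Mobp and Cnp, the 11 surface genes differed from the 15 intracellular ones by 0.41, and 7 of them lay above all 3 genes of the cytoplasmic face. The secreted genes had a median of 1.22. Genes of a class are not replicates, so these are descriptions with no p. The difference in medians does not depend on the scaling of the libraries. It was 0.25 over the 18 members not listed here as also expressed by other brain or vessel cells. That list was made by hand and may be incomplete. Over members whose span overlaps no other gene it was 0.32.

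**Figure D3:**
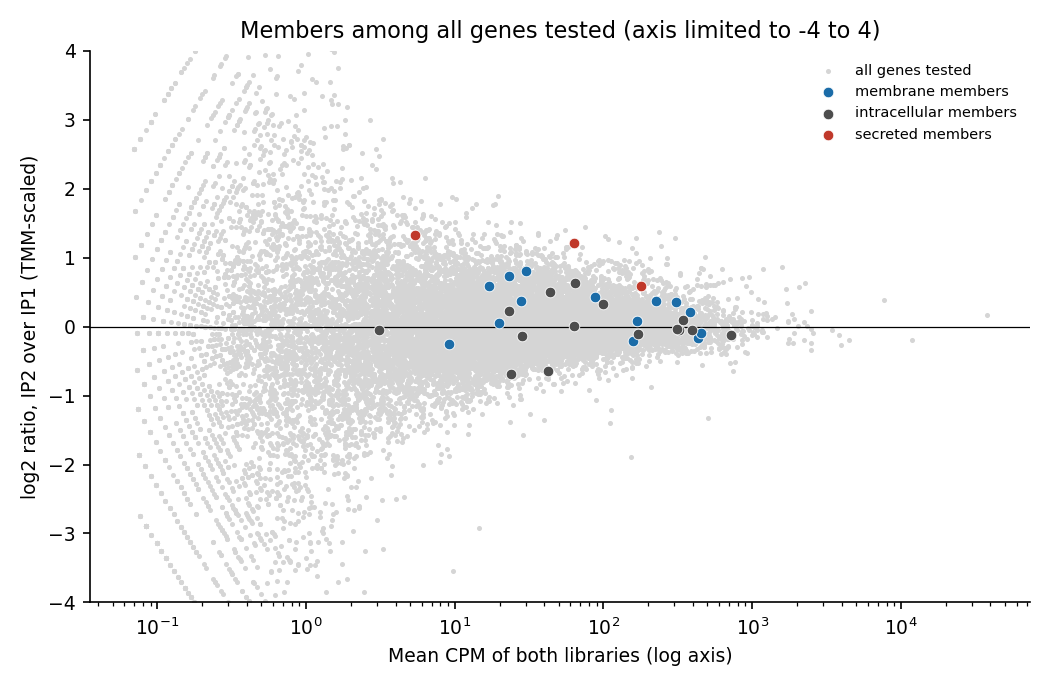
log2 ratio of IP2 over IP1 (TMM-scaled) against mean CPM (log axis) for all 17306 genes tested in grey, with membrane, intracellular and secreted members in colour; 711 genes lie beyond the axis, which runs from -4 to 4. The members fall inside the cloud of all genes at their level, with Trf near its upper edge.

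Further lists of myelin genes were split less strictly, into membrane proteins and others. The membrane list also holds Lgi3, a secreted protein. The other list also holds the membrane proteins Evi2a and Evi2b and the secreted Ptgds, Hapln2 and Klk6. Of 18 other myelin membrane genes, 12 averaged 10 CPM or more. In this subset 11 were higher in IP2, 3 were called, and the median log2 ratio was 0.32. Among all 9656 genes tested at that level, 53.7% were higher in IP2, 7.97% were called higher in IP2, and the median was 0.03. Gpm6b, a membrane-spanning glycoprotein of glia and neurons, had 421 CPM in IP1 and 618 CPM in IP2 (log2 ratio 0.61). Gjc3, a connexin, had 332 and 316 CPM (-0.02), and Nfasc, the adhesion protein neurofascin, 252 and 359.7 CPM (0.57). The calls were Gpm6b, the tetraspanin Cd9 (18.3 and 36.5 CPM) and the junction protein Jam3 (19.1 and 35.4 CPM). Genes of that list under 10 CPM ran the other way, with 5 called higher in IP1 (Gpr62, Cdh19, Tmem125, Cd82 and Slc45a3) and Gjb1 not called. Over all 18 genes the median was 0.15.

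Of 19 other myelin genes grouped as not membrane, 11 averaged 10 CPM or more, with 5 higher in IP2, 6 higher in IP1 and a median of -0.03. Over all 18 genes of that list that were tested the median was 0.02, with 10 higher in IP2 and 8 in IP1. Tubb4a, the tubulin of oligodendrocytes, had 2067 CPM in IP1 and 1690 CPM in IP2. Sept4, a septin of myelin, had 558 and 415 CPM. The single call at that level was Ptgds, the secreted prostaglandin D synthase, at 737 CPM in IP1, 1164 CPM in IP2 (log2 ratio 0.71). The mature oligodendrocyte markers Hapln2 (1.89 and 1.84 CPM) and Klk6 (0.092 and 1.18 CPM) were low.

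Among 18 genes of lipid synthesis the median log2 ratio was 0.14, with 4 called higher in IP2 and 1 in IP1, Pnpla3, whose mean was 1.60 CPM. The shares called over all genes tested were 14.1% and 15.4%. The 4 were the desaturases Scd2 (459 CPM in IP1, 789 CPM in IP2), Scd1 (37.7 and 67.3 CPM), Fads1 (114 and 181 CPM) and Degs1 (63.7 and 92.4 CPM), which are proteins of the ER membrane. Other ER membrane enzymes of the list did not share that direction: Fdft1, the squalene synthase, had 59.1 CPM in IP1 and 40.5 CPM in IP2 (log2 ratio -0.49), Elovl7, a fatty acid elongase, 28.3 and 21.6 CPM (-0.34), and Cers2, a ceramide synthase, 59.5 and 60.3 CPM (0.07). Gltp, a soluble carrier of glycolipids, had 233 CPM in IP1 and 206 CPM in IP2. Lineage transcription factors, 16 genes of the nucleus, had a median of 0.10 and 1 call (Smarca4, 136 and 202 CPM). Olig1 (985 and 913 CPM), Zeb2 (801 and 680 CPM) and Sox8 (342 and 381 CPM) stood under a ratio of 1.5 in either direction.

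Genes of earlier stages of the lineage were also detected, though which cells their RNA came from was not tested. Of 15 genes of newly formed oligodendrocytes, 13 reached 10 CPM in both libraries, where 28.3% of all listed genes did. The median log2 ratio of the 15 was 0.33. Gpr17, a receptor of cells that are leaving the precursor state, had 183 CPM in IP1 and 427 CPM in IP2 (log2 ratio 1.28), Fyn, a kinase that promotes myelination, 284 and 319 CPM, and Sema5a, a guidance protein, 148 and 208 CPM. Of 21 axon signals, receptors and inhibitors of myelination, 6 were called higher in IP2 and 0 in IP1, with a median of 0.35. Over all genes tested, 14.1% were called higher in IP2 and 15.4% in IP1. Without the ratio of 1.5, 2 of the 21 were lower in IP2 at an unadjusted p under 0.05 of the exact binomial test, and edgeR's exact test with a coefficient of variation of 0.1 also made 0 calls toward IP1. The calls of the exact binomial test at 10 CPM or more were Gpr17, Gpr37l1 (38.6 and 70.5 CPM), Notch1 (27.3 and 42.9 CPM) and Adgrg1 (12.8 and 27.6 CPM). All are receptors, but so are Erbb4, Adgrb3, Rtn4r and Tnfrsf19 of the same list, which were not called. Rtn4, the Nogo protein that inhibits axon growth, had 424 and 429 CPM and was not called, nor was its receptor partner Lingo1 (187 and 254 CPM).

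**Figure D4:**
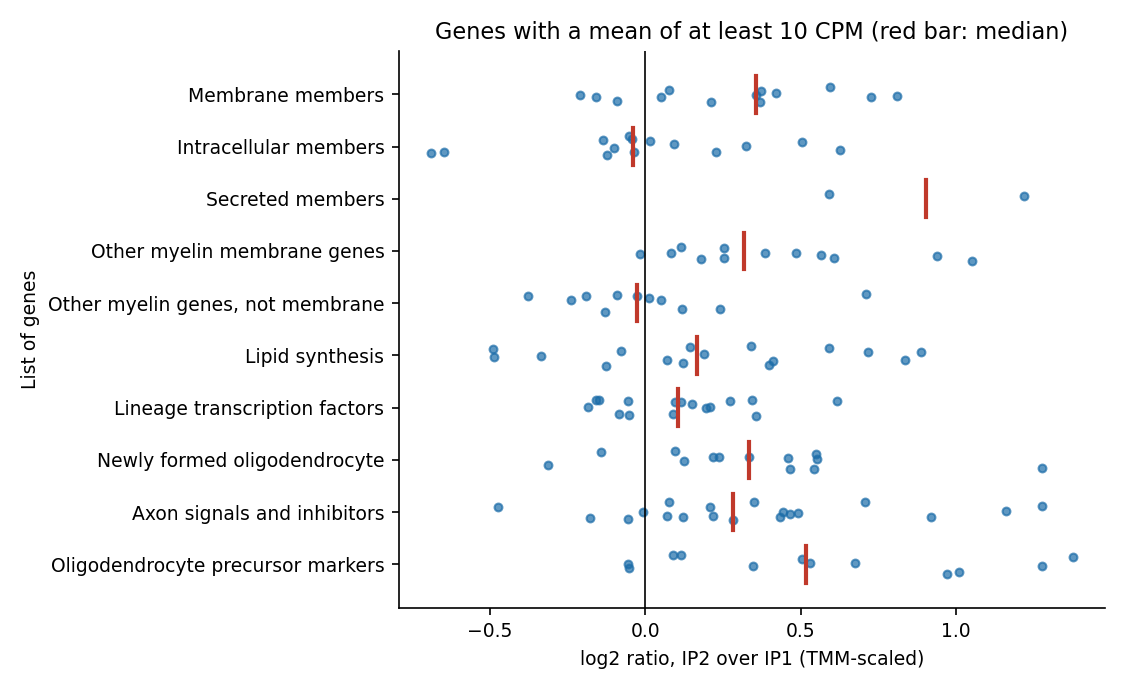
log2 ratio of IP2 over IP1 (TMM-scaled) for genes averaging 10 CPM or more in 10 lists, 1 point a gene, with the median as a red bar. Membrane members and other myelin membrane genes have medians of 0.36 and 0.32. Intracellular members and other myelin genes grouped as not membrane have medians of -0.04 and -0.03. Over all genes tested at that level the median was 0.03.

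Markers of other cells moved with the libraries too. The median log2 ratio was 0.52 for 12 oligodendrocyte precursor markers (10 higher in IP2; summed level 3399 CPM in IP1 and 4328 CPM in IP2), 0.58 for 12 astrocyte markers (10 higher; 3466 and 5113 CPM) and 0.62 for 12 pericyte and pan-mural markers (8 higher; 6748 and 6632 CPM). For 12 neuronal markers it was -0.0013 (6 higher; 17337 and 15259 CPM). By mean level the leading genes of these lists were Olig1 (949 CPM) and Sox6 (526 CPM), Glul (1684 CPM) and Slc1a2 (1593 CPM), Rgs5 (4451 CPM) and Vtn (491 CPM), and Snap25 (11783 CPM) and Camk2a (1082 CPM), in the order above. Endothelial markers, led by Emcn (37.7 CPM) and Esam (12.5 CPM), and microglial markers, led by Sall1 (80.2 CPM) and Tmem119 (11.5 CPM), had medians of 0.34 and 0.09, mostly over genes of few counts. The part of these cells in the ratios of the 32 genes was not tested. Cspg4 is in both the precursor and the mural list and counts toward both medians.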

How the data were processed

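STAR 2.0.0e, HTSeq and the mm10 build are named in the submitters' processing notes. Which annotation was counted, and whether strand was used, is not given in the sources used here, so antisense overlaps cannot be resolved. The deposited values are raw counts per gene symbol, 1 file per library. Summary lines and a row named unknown were left out of totals and tests: 58.1% of listed reads in IP1 and 57.7% in IP2 were in genes, and 31.2% and 31.5% aligned to several places and were not assigned. CPM used the total of all gene counts. Ratios used TMM-scaled library sizes (edgeR 4.0.16), a prior of 0.5 counts and the exact binomial test over all genes with at least 10 counts in total. edgeR's quasi-likelihood fit has no residual degrees of freedom here. Calls, classes and intervals were computed with Python 3.11.15, scipy 1.17.1 and DESeq2 1.42.0 (alternative size factors). The test was tried on simulated counts that held counting error only. That check therefore does not cover variation between libraries. All 32 genes were named, with the 3 highest and the called genes (mean of at least 10 CPM) of each further pathway list. Other genes were named after their values were seen. Zfp24 had no row. Lists share genes, among them Gpr17, Fyn, Tcf7l2, Olig1, Olig2, Sox10, Cspg4 and Cdh19, so they are not separate observations. Some genes of the further lists are not reported here and were left out of those lists after the values were seen, so counts and medians are over the others. Members and lists were chosen with earlier results of these data known. Coordinates and upstream sequences are from RefSeq tables of GRCm38.p6, where all 32 symbols matched. Exon lengths were not used here, so the planned comparison of levels per kilobase between classes was not made.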

Additional observations from a re-analysis of the deposited data

How the results depend on the processing

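The count of members at 10 CPM was 29 under each scaling tried and 25 to 30 at other levels or in single libraries. DESeq2 size factors, no filter on low counts and edgeR's exact test with a coefficient of variation of 0.1 gave the same 7 and 2 calls. With library totals 4 members were called higher in IP2. A ratio of at least 2, or a coefficient of variation of 0.2, left 2 higher in IP2 and 0 in IP1. The coefficient estimated over both libraries, 0.297, left 0 and 0 (edgeR's exact test; 1 member at an unadjusted p under 0.05), and the adjusted p of the exact binomial test alone gave 17 and 12. With library totals the log2 ratios of Enpp6 (-0.0033) and Ndrg1 (-0.039) changed sign; neither passed the test. The median log2 ratio of members was 0.20 as a mean and 0.35 without members that overlap another gene. The membrane minus intracellular difference was 0.41 with Mbp, Mobp and Cnp in the intracellular class and also 0.41 with the secreted genes added to the membrane class. It was 0.25 without the members listed here as also expressed by other cells and 0.24 between means. The choices on the estimated coefficient, on overlapping genes, on secreted genes and, for the median of all members, on other cells were made after seeing the data. The cause of these shifts was not tested. The comparison of levels between classes was not run in any form, since exon lengths were not used here. No ratio can be formed without a library. No paired analysis was possible because there is a single group. Under about 10 CPM, counting error widens the ratio intervals of Nkx6-2, Hapln3 and Opalin.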

Other observations

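Precursor and mural marker genes are given gene by gene, in groups of proteins that were formed after the values were seen and are therefore given without a test. Of the 12 oligodendrocyte precursor markers, the nuclear factors Olig1, Olig2, Sox6 and Sox10 had log2 ratios of IP2 over IP1 of -0.06, -0.05, 0.09 and 0.11. The surface proteins Pdgfra, Cspg4, Gpr17 and Ptprz1 had 1.01, 0.97, 1.28 and 1.38, and Cspg5, also a membrane protein, had 0.68. The secreted proteins Vcan and C1ql1 had 0.50 and 0.53, and the membrane protein Lhfpl3 had 0.35. Of the 12 markers, 5 were called higher in IP2 (Pdgfra, Cspg4, Gpr17, Ptprz1 and Cspg5). Because the groups were formed with the values in view, how the calls fall among them carries no weight. Among all genes averaging 10 CPM or more, 7.97% were called higher in IP2.

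Among the pericyte and pan-mural markers, the surface or secreted proteins Notch3, Abcc9, Anpep, Kcnj8, Vtn and Pdgfrb had log2 ratios of 1.32, 0.85, 0.71, 0.63, 0.62 and 0.33, and the membrane pump Atp13a5 had 0.62. Cspg4, given above among the precursor markers, is in this list too and had 0.97. The cytosolic regulator Rgs5 had -0.20 and the nuclear factors Tbx18 and Foxf2 had -0.39 and -0.33. Higd1b, a small membrane protein of mitochondria, had -0.50. Among astrocyte markers, groups formed in the same way overlapped. The membrane proteins Aqp4, Slc1a3, Fgfr3, Gja1, Slc1a2 and Slc4a4 had 1.16, 1.14, 1.14, 0.88, 0.86 and 0.62, but the connexin Gjb6 had 0.25, below the cytosolic enzymes Glul (0.54) and Aldh1l1 (0.44). The cytosolic Aldoc, the filament protein Gfap and the nuclear factor Sox9 had -0.02, 0.15 and -0.11. In the neuronal list the ratios were smaller, from -0.25 for Stmn2 to 0.41 for Syp. Here too such groups overlapped. Syp, Syt1 and Slc17a7, membrane proteins of synaptic vesicles, had 0.41, 0.10 and 0.14, but the tubulin Tubb3 had 0.15 and the nuclear Rbfox3 0.10. Nefl, Gad2, Gad1, Camk2a, Eno2 and Snap25 had 0.03, -0.04, -0.11, -0.14, -0.19 and -0.19.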
